A study of Homo sapiens with 8 samples.

Results

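The BCL2 family decides whether a cell commits to apoptosis through its mitochondria, and 10 of its genes were examined here for binding of the transcription factor NF-Y in rhabdomyosarcoma cells. The genes were listed by name among 20037 protein-coding genes: 4 pro-survival members (BCL2L1, BCL2, MCL1 and BCL2L2) and 6 pro-death members (BAX, BAK1, BID, BBC3, PMAIP1 and BCL2L11). They were read in all 6 deposited NFYB and NFYC peak lists, and a gene was counted when a peak came within 1000 bp of either of its ends. The genes were chosen by name with the presence or absence of these same peaks already known, among them the peak at BCL2L1, so every count of peaks is a description and no test was attached to it.

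The cells were RH30 and RH4, established lines of rhabdomyosarcoma that carry the PAX3-FOXO1 fusion gene, and binding was mapped by CUT&RUN, in which an antibody brings a nuclease to the DNA that its target occupies. The 4 RH30 libraries used the NFYB antibody on cells with an inducible cytosine base editor, transduced with 1 guide RNA each, selected with blasticidin and collected 8 days after rapamycin switched the editor on. By the study's design the guides sgCCAAT2a and sgCCAAT2b direct the editor to an NF-Y motif of the PAX3 promoter, and their libraries are called edited here. The guides sgCtrl1 and sgCtrl2 are the controls, and their cells carried the same editor and received the same drugs. The other lists came from uninfected RH4 cells with the NFYB and the NFYC antibody. Each guide or antibody had 1 library, so every statement below compares single libraries, and a smaller share of edited cells and weaker binding in each cell could not be told apart. The libraries titled RH30 carry RH4 as cell line in their other labels and are called RH30 after their titles and the study's design.

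Background on the family sets the order of what follows. Pro-survival members hold the effectors BAX and BAK1 in check, and the effectors, once free, open the outer mitochondrial membrane and let cytochrome c escape. BH3-only members such as BID, BBC3 (PUMA), PMAIP1 (NOXA) and BCL2L11 (BIM) start the process by binding pro-survival members or the effectors. NF-Y is built from the subunits NFYA, NFYB and NFYC and recognises the sequence CCAAT, usually a short way upstream of a transcription start.

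The sequences below are from RefSeq (GRCh38.p14, the build the files name as hg38), 5′ to 3′ on the strand of the gene, with each CCAAT motif of either strand in capitals (written ATTGG where it lies on the opposite strand). They are shown because they set the effector gene with a peak at its start beside genes that hold the motif and had no peak there. The stretch of 30 bases from BAK1 lies under its peak. The stretches of 250 bases end just before the start of BAK1, BAX and BCL2L11. The last is a site upstream of the annotated start of BBC3 and inside the span of that gene.
BAK1, chr6:33580231-33580260, minus strand: tagagggagctgATTGGagccgggtgccgc
BAK1, chr6:33580277-33580526, minus strand: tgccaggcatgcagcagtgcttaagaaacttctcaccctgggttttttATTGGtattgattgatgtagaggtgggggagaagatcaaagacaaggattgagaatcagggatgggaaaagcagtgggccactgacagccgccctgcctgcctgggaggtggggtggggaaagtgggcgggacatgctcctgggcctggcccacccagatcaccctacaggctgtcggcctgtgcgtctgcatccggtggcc
BAX, chr19:48954625-48954874, plus strand: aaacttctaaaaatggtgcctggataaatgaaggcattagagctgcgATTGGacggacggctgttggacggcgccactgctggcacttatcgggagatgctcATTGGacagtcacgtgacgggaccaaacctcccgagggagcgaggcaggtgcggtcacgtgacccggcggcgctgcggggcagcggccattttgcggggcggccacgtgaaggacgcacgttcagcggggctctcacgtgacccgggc
BCL2L11, chr2:111120664-111120913, plus strand: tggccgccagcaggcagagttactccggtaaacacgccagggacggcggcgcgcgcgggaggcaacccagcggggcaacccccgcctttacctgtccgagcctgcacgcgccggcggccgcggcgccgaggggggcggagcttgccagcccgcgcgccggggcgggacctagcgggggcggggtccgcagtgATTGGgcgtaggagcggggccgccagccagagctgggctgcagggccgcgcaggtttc
BBC3, chr19:47232737-47232766, minus strand: gaggcgattgcgATTGGgtgagacccagta

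BCL2 family genes carried NF-Y at a gene end about as often as other genes, and those that did differed from list to list. Of the 10 genes, 3 had a peak within 1000 bp of an end in at least 1 list (BCL2L1, MCL1 and BAK1), where 21.7% of all protein-coding genes had one. The counts were 0 with sgCCAAT2a, 0 with sgCCAAT2b, 2 with sgCtrl1 (MCL1 and BAK1) and 2 with sgCtrl2 (BCL2L1 and BAK1). They were 1 for RH4 NFYB and 1 for RH4 NFYC, in both cases BCL2L1. Among all protein-coding genes the share with a peak was 8.90% with sgCCAAT2a, 9.27% with sgCCAAT2b, 12.6% with sgCtrl1 and 16.8% with sgCtrl2, and 15.0% for RH4 NFYB and 15.3% for RH4 NFYC. Among 10 genes such shares amount to 1 or 2 genes, so the family's counts were near the background. No member had a peak within 1000 bp in all 6 lists, as 7.03% of all genes did.

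**Figure D1:**
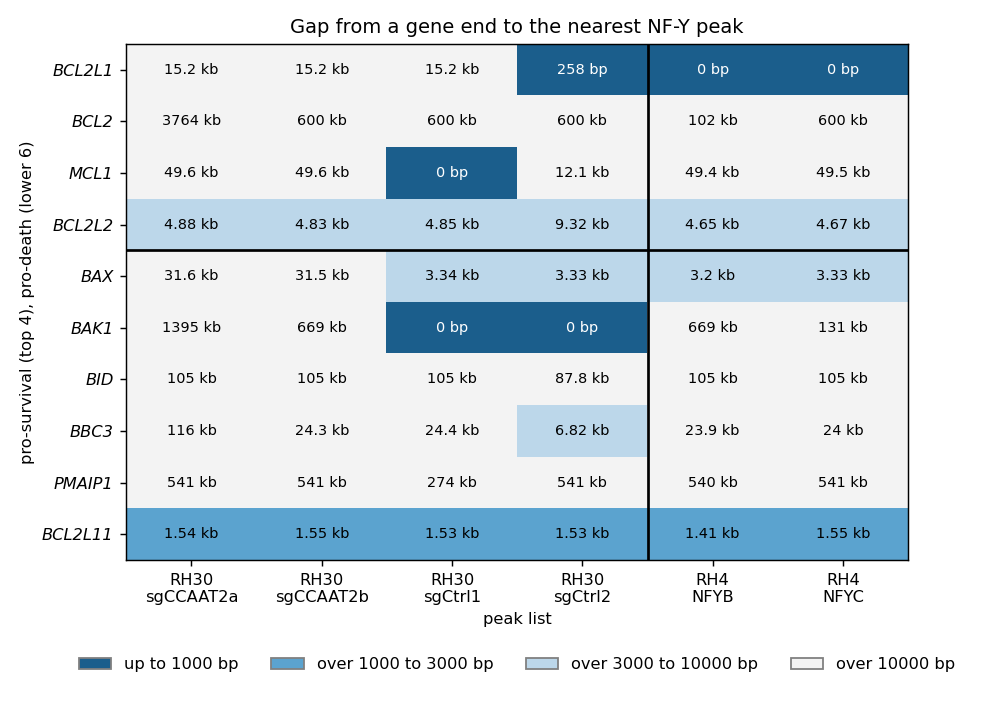
Gap between a gene end and the nearest NF-Y peak for the 10 BCL2 family genes (rows) in the 6 peak lists (columns); 0 bp means that the peak covers the gene end, and darker cells mark shorter gaps. BCL2L1, MCL1 and BAK1 have the cells within 1000 bp, and BCL2L11 has a peak 1.41 to 1.55 kb from its end in every list.

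Values near the window's limit were few: the member peak farthest from a gene end and still inside it was BCL2L1 with sgCtrl2, at 258 bp, and the nearest outside it was BCL2L11 for RH4 NFYB, at 1411 bp.

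The depth and length of the RH30 lists moved with the guides. At PAX3, whose promoter motif the guides sgCCAAT2a and sgCCAAT2b were designed to target, neither edited list had a peak. Both controls and both RH4 lists had one. Among all genes with a peak in both controls, 21.6% had one in neither edited list. Per the file headers, the edited libraries were the deeper ones, with 21188491.5 tags for sgCCAAT2a and 28188178 for sgCCAAT2b, against 13920126.5 for sgCtrl1 and 10479544.5 for sgCtrl2. Of these tags, 1.22% and 1.46% fell in peaks in the edited libraries, against 2.40% and 3.10% in the controls. A peak needed 5 tags with sgCCAAT2a and 6 with sgCCAAT2b, against 4 in each control. The lists held 2451 and 2558 edited peaks, against 4025 and 6687 control peaks. The part of these differences in the counts of members was not tested.

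Among the pro-survival genes, BCL2L1 carried a peak close to its start in both RH4 lists and in the sgCtrl2 list. BCL2L1 encodes BCL-XL, an inhibitor of apoptosis on the outer mitochondrial membrane; the gene spans chr20:31664452-31723963 and is read from the higher coordinate. The peak lay at 31723509 to 31723705 with sgCtrl2, at 31723425 to 31723986 for RH4 NFYB and at 31723524 to 31723987 for RH4 NFYC. All of these peaks reached into the gene: their centres were 356 bp downstream of the first start with sgCtrl2, 258 bp for RH4 NFYB and 208 bp for RH4 NFYC. By a limit of 200 bp, which lies just below the smallest of these distances, such a position was uncommon. Of all peaks centred within 1000 bp of an annotated start, 7.12% with sgCtrl2, 3.82% for RH4 NFYB and 4.18% for RH4 NFYC lay farther downstream than that limit. The gene has another annotated start, at position 31722868, and all of these peaks lay between it and the first start or over the first start.

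In RH4 cells the 2 NF-Y subunits were found at the same BCL2L1 site, and the site was wide. The NFYB and NFYC peaks shared 463 bp, which is 82.4% of the NFYB peak and 99.8% of the NFYC peak. The authors' consensus list holds the site as an entry of 463 bp, wider than 94.2% of its entries. The NFYB peak of 562 bp was wider than 89.8% of the NFYB list, and the NFYC peak of 464 bp was wider than 94.9% of the NFYC list. The sgCtrl2 peak lay wholly within the RH4 NFYB peak.

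**Figure D2:**
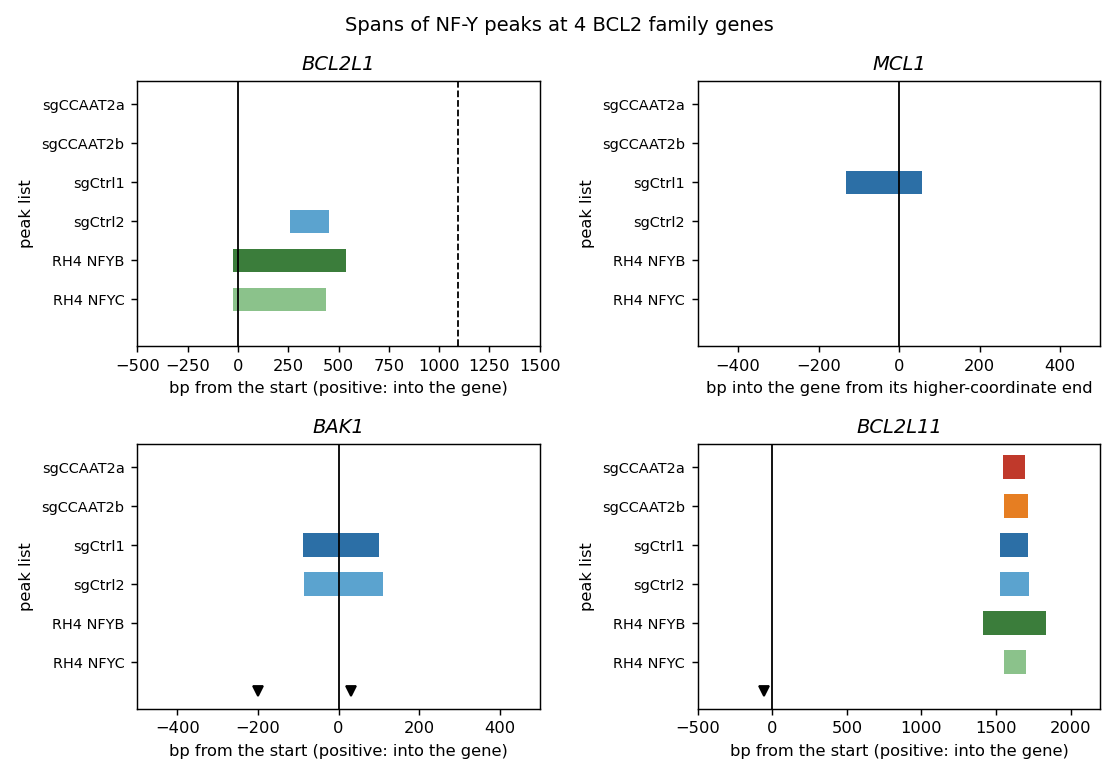
Spans of NF-Y peaks near BCL2L1, MCL1, BAK1 and BCL2L11 in the 6 lists, in bp from the gene start with positive values into the gene (for MCL1, from the gene end at the higher coordinate); the dashed line is the other annotated start of BCL2L1 and triangles are CCAAT motifs within the promoter window, which was not searched for MCL1. The BCL2L11 peaks line up in every list, the BAK1 peaks are found with both control guides, and the BCL2L1 peaks with sgCtrl2 and in RH4.

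Within RH30, the BCL2L1 peak was near the head of the sgCtrl2 file and absent from the other lists. It stood at place 22 of 6687, while sgCCAAT2a, sgCCAAT2b and sgCtrl1 had their nearest peak 15.2 kb outside the gene. Of the first 100 sgCtrl2 peaks, 89 overlapped an sgCCAAT2a peak, 92 an sgCCAAT2b peak and 86 an sgCtrl1 peak, and 5 overlapped none of the 3 lists, the BCL2L1 peak among them. Whether the order of the file is a ranking is not stated, and the first 100 were chosen after the place of BCL2L1 was known. The authors' deposited tables hold the sgCtrl2 peaks that stood 2.5-fold or more above another library, at a Poisson p of 0.001. They hold 61.9% of all sgCtrl2 peaks for the comparison with sgCCAAT2a, 60.7% for sgCCAAT2b and 36.2% for sgCtrl1. The BCL2L1 peak was in the authors' deposited tables for both edited libraries and was missing from the one for sgCtrl1, although sgCtrl1 had no peak there either. Of all sgCtrl2 peaks, 24.3% were listed for both edited libraries and not for sgCtrl1, whether or not sgCtrl1 had a peak there. The absence of a called peak in the edited lists was thus shared by a control.

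The next peak upstream of the BCL2L1 start showed the reverse. TPX2, which encodes a spindle assembly factor, begins 15.3 kb from BCL2L1, and it was looked up after the peaks had been seen. Its start carried a peak in 5 of the lists: at 31739192 to 31739344 with sgCCAAT2a, at 31739153 to 31739315 with sgCCAAT2b, at 31739204 to 31739392 with sgCtrl1, and in both RH4 lists. The sgCtrl2 list had none. In RH30 the libraries thus had a peak at BCL2L1 or at TPX2 and in no case at both, whereas both RH4 lists held the pair. The contrast within RH30 rested on the sgCtrl2 library alone, and a relation between the sites was not tested.

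MCL1, which encodes a short-lived inhibitor of apoptosis, had a peak in the sgCtrl1 list alone. The gene spans chr1:150574558-150579610 and the peak, at 150579554 to 150579742, covered the end at the higher coordinate. It stood at place 2915 of 4025. The nearest peak was 49.6 kb away with sgCCAAT2a and with sgCCAAT2b, 12.1 kb away with sgCtrl2, and 49.4 and 49.5 kb away for RH4 NFYB and RH4 NFYC. A peak with sgCtrl1 and in no other list was found at 0.359% of all genes.

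BCL2 and BCL2L2 had no peak of their own. BCL2, the founding pro-survival gene, spans 196745 bp of chromosome 18 and contained 0 peaks in every list; the nearest peak was 3760 kb away with sgCCAAT2a, 102 kb for RH4 NFYB and 600 kb in the other 4 lists. BCL2L2, which encodes BCL-W, had a peak 4.65 to 4.88 kb from its end at the lower coordinate in both edited lists, with sgCtrl1 and in both RH4 lists, and 9.32 kb from its other end with sgCtrl2. The peaks in those 5 lists lay inside PPP1R3E, a gene for a glycogen-targeting phosphatase subunit that neighbours BCL2L2, 673 to 906 bp from an end of that gene.

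Of the pro-death effectors, BAK1 had a peak over its start in both control libraries and in neither edited library. BAK1 encodes an effector that sits in the mitochondrial membrane, and the gene spans chr6:33572552-33580276, read from the higher coordinate. With sgCtrl1 it covered positions 33580176 to 33580364, and with sgCtrl2 positions 33580166 to 33580362, of which 187 bp are shared. Their centres were 6 bp and 12 bp downstream of the start. The nearest peak was 1390 kb away with sgCCAAT2a, 669 kb with sgCCAAT2b, 669 kb for RH4 NFYB and 131 kb for RH4 NFYC. RH4 cells, which carried no guide, thus lacked the peak as well.

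The BAK1 pattern, a peak in both controls and in neither edited list, was found at 489 genes, 2.44% of all protein-coding genes and 21.6% of the 2259 genes with a peak in both controls. When absence from both RH4 lists was added, 0.399% of all genes matched. The BAK1 peak stood at place 2903 of 4025 with sgCtrl1 and at place 2983 of 6687 with sgCtrl2. Of the 669 sgCtrl2 peaks around it, at places 2676 to 3344, 24.1% overlapped an sgCCAAT2a peak, 25.3% an sgCCAAT2b peak and 33.6% an sgCtrl1 peak. Most peaks at that place were therefore missing from each of the other RH30 lists. Both places lie past entry 2451, the length of the shortest RH30 list. Cutting each RH30 list to its first 2451 entries therefore had to remove the BAK1 peak from both control lists. After that cut the pattern of both controls and neither edited list held for 0 members and 1.54% of all genes. Whether list length had a part in the BAK1 pattern was not tested. Like the BCL2L1 peak, the BAK1 peak was in the authors' deposited tables for both edited libraries and missing from the one for sgCtrl1.

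**Figure D3:**
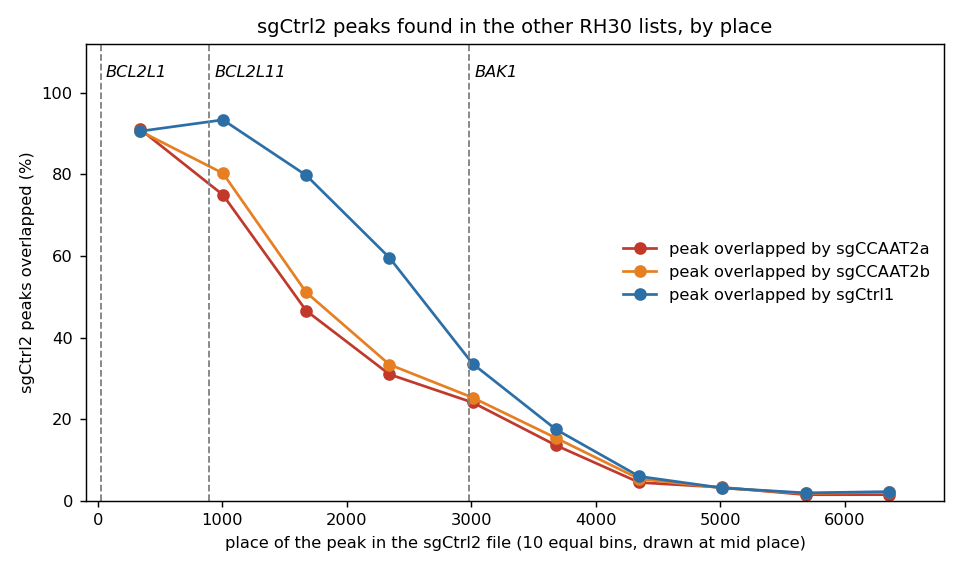
Percent of sgCtrl2 peaks that overlap a peak of sgCCAAT2a, sgCCAAT2b or sgCtrl1, in 10 equal bins of the sgCtrl2 file (x axis, place in the file), with the places of the peaks at BCL2L1, BCL2L11 and BAK1 as dashed lines. Sharing falls from about 91% in the first bin for each list to about 2% in the last; BCL2L1 lies where most peaks are shared and BAK1 where most are not.

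The peak at BAK1 covered a CCAAT motif. The promoter window, 250 bases before to 50 after the start, held ATTGG 28 bases after the start, at 33580244 to 33580248, and again 202 bases before it. The first is the one in the stretch of 30 bases printed above: it was 24 bp from the centre of the sgCtrl1 peak and 18 bp from the centre of the sgCtrl2 peak. The site 202 bases before the start was outside both peaks.

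BAX, the other effector, had no peak within 1000 bp in any list and holds the motif at 203 and 148 bases before its start, as printed above. The nearest peak in both controls and both RH4 lists lay 3.20 to 3.34 kb beyond the end of BAX at the higher coordinate. It covered or adjoined the lower end of the neighbouring gene FTL, which encodes the ferritin light chain. The edited lists lacked it, and their nearest peak was 31.6 kb away with sgCCAAT2a and 31.5 kb with sgCCAAT2b. In the authors' deposited tables this peak too was listed for both edited libraries and missing for sgCtrl1.

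The 4 BH3-only members had no peak within 1000 bp in any list, yet BCL2L11 carried a peak inside the gene in all 6. BCL2L11 encodes BIM, which can bind every major pro-survival protein, and the gene spans chr2:111120914-111168445. The peak lay at 111122458 to 111122610 with sgCCAAT2a and at 111122465 to 111122627 with sgCCAAT2b, against 111122443 to 111122631 with sgCtrl1 and 111122440 to 111122636 with sgCtrl2. For RH4 NFYB it lay at 111122325 to 111122747 and for RH4 NFYC at 111122465 to 111122615. The centres fell between 1620 and 1632 bp downstream of the start, a spread of 12 bp over lists from 2 cell lines and 2 antibodies. It was the one peak within 100 kb of the gene in each list.

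Sites like that at BCL2L11 were counted within limits that enclose its own distance, so their share is a description and no measure of rarity. By the unlike and wider measure of either side of either gene end, 7.03% of all genes had a peak within 1000 bp in all 6 lists. A peak more than 1000 and up to 2000 bp downstream of an annotated start was found in all 6 lists at 43 of 15843 genes, and 17 of these, BCL2L11 included, had no peak within 1000 bp of a gene end in any list. With a window of 3000 bp, BCL2L11 was counted in every list, as were 8.00% of all protein-coding genes, and it became the single member found in all 6. A peak within 3000 bp in every list with none within 1000 bp in any was found at 0.579% of all genes. In the RH30 files the peak stood at places 1554 of 2451 and 1275 of 2558 in the edited lists, and at 1330 of 4025 and 895 of 6687 in the controls. In the authors' deposited tables it was listed for sgCCAAT2a and missing for sgCCAAT2b and sgCtrl1. The promoter printed above holds ATTGG 58 bases before the start, and no peak of any list covered it.

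BID, BBC3 and PMAIP1 were far from any peak in most lists. The nearest peak to BID, which links death receptors to mitochondria, was 87.8 kb away with sgCtrl2 and 105 kb away in the other 5 lists. BBC3, a target of p53, had its nearest peak 116 kb away with sgCCAAT2a and 24.3 kb with sgCCAAT2b, against 24.4 kb with sgCtrl1 and 6.82 kb with sgCtrl2, and 23.9 and 24.0 kb away in RH4. PMAIP1, also a target of p53, had its nearest peak 274 kb away with sgCtrl1 and 540 or 541 kb away in the other lists. BBC3 holds ATTGG 87 bases before its annotated start, as printed above.

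Pro-survival and pro-death members were compared by count. A peak in at least 1 list was found at 2 of 4 pro-survival genes (BCL2L1 and MCL1) and at 1 of 6 pro-death genes (BAK1), beside 21.7% of all genes. In the edited lists the counts were 0 of 4 and 0 of 6. With sgCtrl1 they were 1 and 1, with sgCtrl2 1 and 1, and in each RH4 list 1 and 0. With the window of 3000 bp, which takes in BCL2L11, the counts over all lists were 2 of 4 and 2 of 6, beside 25.0% of all genes. Differences of 1 gene between groups of this size, in lists without replicates, give no ground for ranking the groups.

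The motif was searched in the promoter windows alone, and the DNA under the BCL2L1 and BCL2L11 peaks that lies outside those windows, like that under the MCL1 peak, was not examined for it. Of the 8 members in the promoter table (MCL1 and BCL2L2 are not among them), 4 hold CCAAT on either strand: BAK1, BAX, BBC3 and BCL2L11. Over all 15843 protein-coding genes in the table the share was 42.1%, and 34.7% of the 22199 single promoter windows held it. BCL2L1, which has 2 annotated starts and a peak near one of them, holds the motif in neither window; its sgCtrl2 peak lies outside both, so whether that peak covers a motif was not tested. BCL2, BID and PMAIP1 hold none and had no peak. Among all genes in the table the motif was more frequent beside a peak: it was held by 88.5% of genes with an sgCCAAT2a peak, 87.4% with sgCCAAT2b, 83.1% with sgCtrl1 and 72.1% with sgCtrl2, and by 80.1% in each RH4 list. Of genes without a peak, 34.6 to 37.1% held it, depending on the list.

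Genes with the pattern of BCL2L1 or BAK1 in all 6 lists and in the authors' deposited tables were few. Besides BCL2L1, 173 genes had a peak with sgCtrl2 and in both RH4 lists alone (0.868% of all genes with BCL2L1 counted), and 95 of them shared its listing in the tables. The nearest of these by place were PBX3 at 864, MAP3K9 at 1172 and EGLN2 at 1255, none of them near place 22. Besides BAK1, 79 genes had a peak in both controls alone and 46 shared its listing. Among the nearest by place were the neighbours ERP29 and TMEM116, which share a peak at 2919.

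Beyond the 10 members, 42 further apoptosis genes were examined, and 12 of them (28.6%) had a peak in at least 1 list. The counts were 2 with sgCCAAT2a and 2 with sgCCAAT2b, against 4 with sgCtrl1 and 7 with sgCtrl2, and 11 for RH4 NFYB and 10 for RH4 NFYC. As shares these were 4.76% and 4.76%, against 9.52% and 16.7%, and 26.2% and 23.8%, beside the shares of all genes given above. The further genes of the BCL2 family had peaks at 4 of 13. BMF, a BH3-only gene, had a peak in all 6 lists with centres 78 to 151 bp upstream of its start. BCL2L13, a mitochondrial member with a less settled role, also had a peak in all 6, which it shares with its neighbour ATP6V1E1. The centres of this peak lay 23 to 80 bp outside an end of BCL2L13. They were more than 1000 bp upstream of its nearest annotated start, so this peak, unlike that at BMF, was not at such a start. The BCL2L13 peak is the one nearest to BID in the 5 lists other than sgCtrl2. BNIP3L, which acts in the removal of mitochondria, had peaks in both controls and both RH4 lists, and BAD, a BH3-only gene, had a peak centred 718 bp outside the gene with sgCtrl2 and another, which does not overlap it, 75 bp outside the gene for RH4 NFYC.

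**Figure D4:**
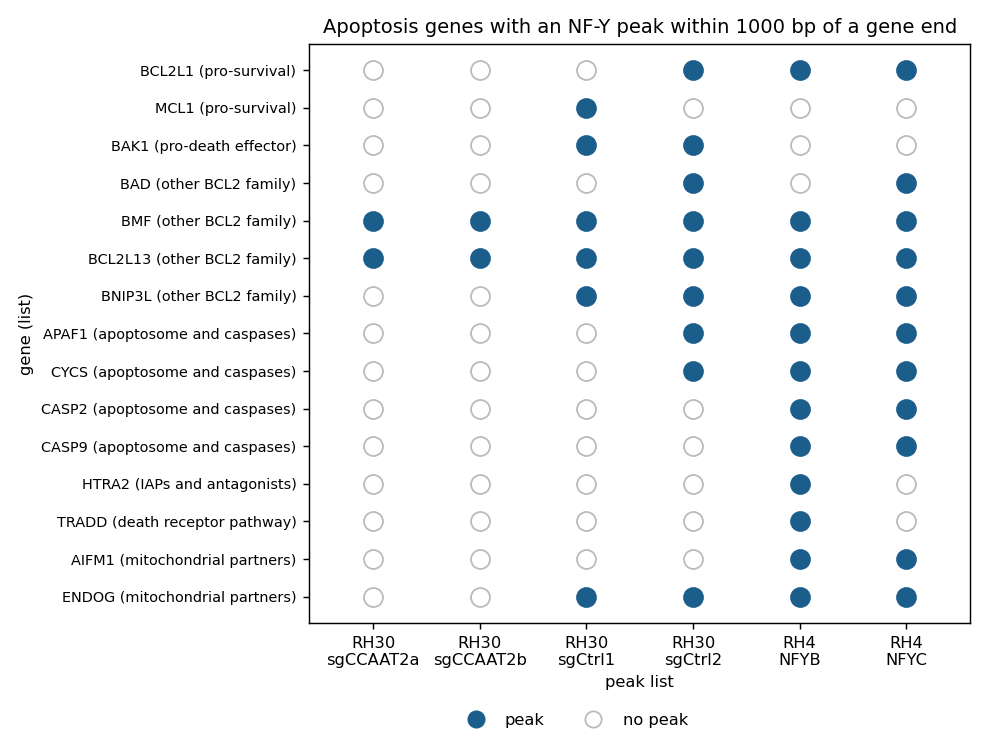
Apoptosis genes with a peak within 1000 bp of a gene end in at least 1 of the 6 lists: filled circles mark a peak, open circles none, rows are genes with their list and columns are the peak lists. BMF and BCL2L13 are filled in every column, and BCL2L1, APAF1 and CYCS share the columns sgCtrl2, RH4 NFYB and RH4 NFYC.

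Downstream of mitochondria, the genes of the apoptosome and the caspases had peaks in at least 1 list at 4 of 9 (44.4%), beside 21.7% of all genes. APAF1, the scaffold of the apoptosome, and CYCS, which encodes cytochrome c, had peaks with sgCtrl2 and in both RH4 lists and in no other list, the pattern of BCL2L1. The APAF1 peak is shared with IKBIP and the CYCS peak with SPMIP4. The initiator caspase genes CASP2 and CASP9 had peaks in both RH4 lists and in no RH30 list, as did 1.64% of all genes. Among 5 genes of mitochondrial partners, ENDOG, which encodes a nuclease, had peaks in both controls and both RH4 lists, and AIFM1, which encodes a flavoprotein of the intermembrane space, in both RH4 lists. Of 7 inhibitors of apoptosis and their antagonists, HTRA2 had a peak for RH4 NFYB, shared with AUP1. Of 8 death receptor genes, TRADD had one in the same list, shared with FBXL8. Of the 42 genes, 4 had a peak in both controls, and 2 of those (BNIP3L and ENDOG) had one in neither edited list. Among all genes with a peak in both controls, 21.6% had one in neither edited list. Counts this small give no ground for a difference from that share.

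Peaks at 6 muscle genes and 4 genes of other lineages were also read, which show binding and not expression. They cannot check the identity of the cell lines. A peak in at least 1 list was found at 3 of the 6 and 0 of the 4, beside 21.7% of all genes. Besides PAX3, MYOD1 had a peak in both controls and CKM for RH4 NFYB, while MYOG, MYF5, DES and the genes of other lineages had none. The CKM peak was centred 16295 bp downstream of the nearest annotated start of CKM, so it was not at that start.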

How the data were processed

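The data were the authors' deposited peak lists of 6 CUT&RUN libraries, 1 RH4 consensus list and 3 tables of differential peaks (10 files); the 2 IgG libraries were not analysed here. All hold peak positions in bp of hg38. The deposited score is 1 at every peak, so peak height was not used. HOMER findPeaks, per the file headers, called the RH30 peaks in each library, at 2-fold over an input directory named S3 and 4-fold over the surrounding 10000 bp, and HOMER's differential peak tool made the tables from the sgCtrl2 list (fold of 2.5, Poisson p of 0.001). For RH4 no header names a caller; the submitters' processing notes name MACS2 and HOMER, with Bowtie2 for alignment among the other tools, without roles. Depth is known for RH30 from the headers and unknown for RH4.

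Libraries were grouped by title, 1 per group, so no test between conditions was run. Gene ends came from RefSeq (GRCh38.p14) for 20037 protein-coding genes on chromosomes 1 to 22, X and Y; annotated starts, strand and sequence came from the RefSeq promoter table, which holds 8 of the 10 members. A peak counted at a gene when at least 1 bp lay within 1000 bp of either end. Motifs were CCAAT or ATTGG. Overlaps were tested on simulated data against bedtools 2.31.1, and the genes found were identical in 20 of 20. Members and lists were chosen with earlier results of these data known. Genes named were all members, further apoptosis genes with a peak, genes sharing such a peak, and up to 3 genes of the same pattern nearest by place, except for some that are not reported here; TPX2, PPP1R3E and FTL were named after their values were seen. Alternatives were windows of 500 and 3000 bp, the peak centre in the window, annotated starts only, the first 50% of each RH30 list with the widest 50% of each RH4 list, an overlap of 50% of both peaks, other motif definitions, and, chosen after seeing the data, RH30 lists of equal length and sgCtrl2 left out.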

Additional observations from a re-analysis of the deposited data

How the results depend on the processing

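Of 70 recomputed values over 13 results, 53 stayed within 1.5 times the value reported and 17 did not; windows of 500 bp and the peak centre in the window moved none. The window of 3000 bp added BCL2L11 everywhere: it gave 2 members for RH4 NFYB, 2 for RH4 NFYC, 1 with sgCCAAT2a and 1 with sgCCAAT2b, 2 pro-death members in at least 1 list, 1 member in all 6 lists and 2 RH4 NFYB peaks that overlap an NFYC peak. Annotated starts alone gave 1 member with sgCtrl1 and 1 pro-survival member, since MCL1 is not in the promoter table. The first 50% of each RH30 list, with the widest 50% of each RH4 list, gave 0 members with sgCtrl1, 1 pro-survival member and 0 members in both controls and neither edited list. RH30 lists of equal length, the first 2451 entries, gave 0 members with sgCtrl1, 1 with sgCtrl2 (BCL2L1) and 0 in both controls and neither edited list, a pattern that then held for 1.54% of all genes. With sgCtrl1 as the only control 2 members (MCL1 and BAK1) had a control peak and no edited peak, and with sgCtrl2 as the only control also 2 (BCL2L1 and BAK1). No paired analysis was possible because each guide and antibody has 1 library and the results come from no test. Without scores, weak peaks could not be told from strong ones, and an absent peak does not show absent binding.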
